A study of Mus musculus with 9 samples.

Results

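The genes described here, 10 that mouse B cells of the spleen barely transcribe and that B cells of the peritoneal cavity carry at clear levels, are taken from 22178 genes measured by RNA-seq. They are Gas7, Pstpip2, Tppp, Myo1d, Gpr55, Fgl2, Plscr1, Cyp11a1, AI607873 and Lysmd2. The 10 genes were picked from these same libraries as near absent in B2 and strongly raised in both B1 and B2B1, outside the usual B-1 marker families, with no numeric threshold. Their contrast with B2 is thus given as a description and was not tested. The difference between B2B1 and B1 was not part of the choice and was tested.

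The series holds 9 libraries, 3 each of B2, B1 and B2B1 cells, all on a backcrossed C57BL/6 background. B2, the conventional B cells, were splenic, and their strain label was VH12B1-8/Vk4. B1 cells, known from the body cavities, were peritoneal and labelled B1-8VH12/Vk4. B2B1 cells shared both the peritoneal origin and the label of B1, and their B cell receptor had been switched about 30 days before isolation. No source used here gives the age of the mice, the sort gates, how the switch was driven or whether each library is a different mouse. The p-values therefore cover the spread among these libraries alone, which may be largely technical. Xist, an RNA of female cells, was at 281, 0.412 and 279 TPM in B2 libraries 1 to 3. It was at 0.461, 0.355 and 180 TPM in B2B1 and at 212, 298 and 223 TPM in B1. Libraries within B2 and within B2B1 thus did not all come from the same mice. Sex, by Xist, is uneven between B2B1 and B1, and the Xist level was a covariate in an alternative fit. Tissue and strain label differ together with cell type wherever B2 is compared, and these cannot be told apart.

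Values are TPM, relative transcript amounts corrected for gene length, which hold no information on sequencing depth. Per library they summed to 894515 to 943043 over the table. Defining B cell markers were present in every library, with Cd79a, a signalling chain of the B cell receptor, at 2393 to 3098 TPM and Ms4a1, which encodes CD20, at 1482 to 2359 TPM. Macrophage markers were present in some peritoneal libraries. Of the 20 measured, the 18 left without Icam2 and Emr1 (a subset chosen after its values were seen) summed to 3.37 to 4.99 TPM in B2, 39.7 to 274 TPM in B2B1 and 3.98 to 48.4 TPM in B1. Over all 20 the sums were 146 to 151, 151 to 387 and 95.4 to 137 TPM, of which Icam2 made up 140 to 147 TPM in B2. Emr1 was at 0.272 to 0.448 TPM in B2, 39.9 to 52.0 TPM in B2B1 and 13.6 to 20.9 TPM in B1, and Fn1 was listed at 0 everywhere. T cell markers summed to 13.1 to 32.2 TPM, NK cell markers to 0.781 to 16.9 TPM and dendritic cell markers to 34.4 to 311 TPM, the last 2 highest in B2. Single genes made up most of these B2 sums, Prf1 at 11.3 to 16.3 TPM and Ccr7 at 246 to 293 TPM. The dendritic marker Flt3 was at 14.1 to 16.2 TPM in B2, while Siglech was listed at 0 everywhere. The NK marker Ncr1 was listed at 0 in B2. Mast cell and eosinophil markers reached 6.32 TPM and platelet and erythroid markers 7.06 TPM, both in B2B1. Neutrophil markers stayed under 2 TPM in sum, and 4 of 8 mesothelial and stromal markers (Msln, Upk3b, Wt1 and Krt19) were listed at 0 in all 9 libraries. In bulk RNA, fewer cells of a type and less RNA per cell cannot be told apart.

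Apart from Gas7 and Pstpip2, which share a family, the 10 genes belong to unrelated families. Gas7 and Pstpip2 are F-BAR proteins, which bind curved membrane and couple it to actin. Tppp binds and bundles microtubules, and Myo1d is an actin motor of the class I myosins. Gpr55 is a G protein-coupled receptor for lysophosphatidylinositol, and Fgl2 is a fibrinogen-like protein that exists as a membrane prothrombinase and as a secreted factor with immunosuppressive activity. Plscr1 is an interferon-induced phospholipid scramblase. Cyp11a1 is the mitochondrial enzyme that cuts the cholesterol side chain to make pregnenolone, the first step of steroid synthesis, best known from adrenal gland and gonads. AI607873, named Ifi207 in RefSeq, is a PYHIN protein of an interferon-inducible gene cluster, and Lysmd2 is a little-studied protein with a LysM domain.

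RefSeq promoter sequences (GRCm38.p6) were matched for 6 of the 10 genes, with 7 start sites, since Cyp11a1 has 2 of them. Gas7, Pstpip2, Myo1d and Lysmd2 had no entry. The 250 bases before each start were searched on both strands for GAAANNGAA (the core of an interferon-stimulated response element), TTCNNNGAA (a STAT site), TGANTCA (AP-1), CAAGGTCA (SF-1, the steroidogenic factor) and TGTGGT (Runx). A STAT match was found in 3 of these 6 genes (Gpr55, Fgl2 and Plscr1), against 7.0% of all 32851 promoters of the table. The interferon element matched in 2 genes (Gpr55 and AI607873), against 7.1% of promoters, Runx in 3 (Gpr55, Plscr1 and AI607873), against 14.0%, and AP-1 in 1 (Fgl2), against 6.7%. SF-1 matched in 0 of the 7 windows and in 1.3% of all promoters. Tppp and Cyp11a1 had no match to any of these letters. The 2 Cyp11a1 windows, chr9:57997774-57998023 and chr9:58014702-58014951, do not lie at the start that GENCODE M21 gives for the gene, 58006411. The bases before that start were not searched, so nothing is shown about them. A match is a description of the letters and not a binding site.

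The 4 windows with a match are printed 5′ to 3′ on the gene's own strand, up to the base before the start, with the matched letters in capitals. They show that the matches differ in kind and place from gene to gene. The window of Gpr55 lies at chr1:85961056-85961305 on the minus strand and holds, in order, the interferon element, the Runx letters and the STAT letters. That of Fgl2 lies at chr5:21372423-21372672 on the plus strand, with STAT before AP-1. The window of Plscr1, chr9:92249944-92250193 on the plus strand, has Runx before STAT. GENCODE M21 starts Plscr1 at 92249750, so by that annotation the whole window lies within the gene. The window of AI607873, chr1:173741810-173742059 on the minus strand, has Runx before the interferon element.
Gpr55: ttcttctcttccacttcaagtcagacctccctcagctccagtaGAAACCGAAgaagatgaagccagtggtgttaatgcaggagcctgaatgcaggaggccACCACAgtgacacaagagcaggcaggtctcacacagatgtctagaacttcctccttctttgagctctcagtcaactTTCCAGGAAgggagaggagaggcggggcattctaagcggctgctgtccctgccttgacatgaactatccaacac
Fgl2: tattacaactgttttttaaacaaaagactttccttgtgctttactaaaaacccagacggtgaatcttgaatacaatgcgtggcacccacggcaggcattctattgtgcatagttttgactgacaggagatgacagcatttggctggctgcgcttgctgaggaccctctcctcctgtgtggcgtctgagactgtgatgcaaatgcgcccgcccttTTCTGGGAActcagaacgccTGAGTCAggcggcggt
Plscr1: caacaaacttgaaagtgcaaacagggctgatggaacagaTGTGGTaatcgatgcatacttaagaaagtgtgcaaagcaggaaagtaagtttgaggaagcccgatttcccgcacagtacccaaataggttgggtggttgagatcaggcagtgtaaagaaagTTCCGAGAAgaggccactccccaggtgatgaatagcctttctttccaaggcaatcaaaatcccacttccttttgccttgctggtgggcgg
AI607873: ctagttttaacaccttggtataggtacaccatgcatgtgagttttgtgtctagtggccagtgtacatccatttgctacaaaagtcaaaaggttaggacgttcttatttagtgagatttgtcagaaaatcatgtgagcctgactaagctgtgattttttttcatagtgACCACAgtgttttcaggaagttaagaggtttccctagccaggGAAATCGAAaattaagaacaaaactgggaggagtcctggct

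The level of the 10 genes in B2 ranged from a mean of 0.0253 TPM (Gas7 and Cyp11a1) to 3.30 TPM (Plscr1). In the 6 peritoneal libraries single values ran from 4.27 TPM (Myo1d) to 523 TPM (Fgl2). For each of the 10, the lowest peritoneal library stood above the highest B2 library, by 1.58 (Myo1d) to 6.31 (Fgl2) on the log2(TPM + 1) scale, as the choice of the genes required. The median log2 difference of the 10 was 5.48 for B1 minus B2 and 5.56 for B2B1 minus B2, beside −0.135 and −0.193 for all 11099 tested genes (mean TPM of at least 1). All 10 passed that filter. Limma, at an adjusted p under 0.05 over all tested genes, called 51.9% in the comparison of B1 with B2, where 18.0% stood higher in B1 and 33.9% lower. Of B2B1 with B2 it called 63.0%, with 21.0% higher in B2B1 and 42.0% lower. With median-of-ratios scaling the shares higher and lower were 24.9% and 22.9% in B1, and 30.5% and 28.6% in B2B1. All 10 genes are among the higher calls of both, which the rule fixed. The 2 comparisons share the B2 libraries.

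**Figure D1:**
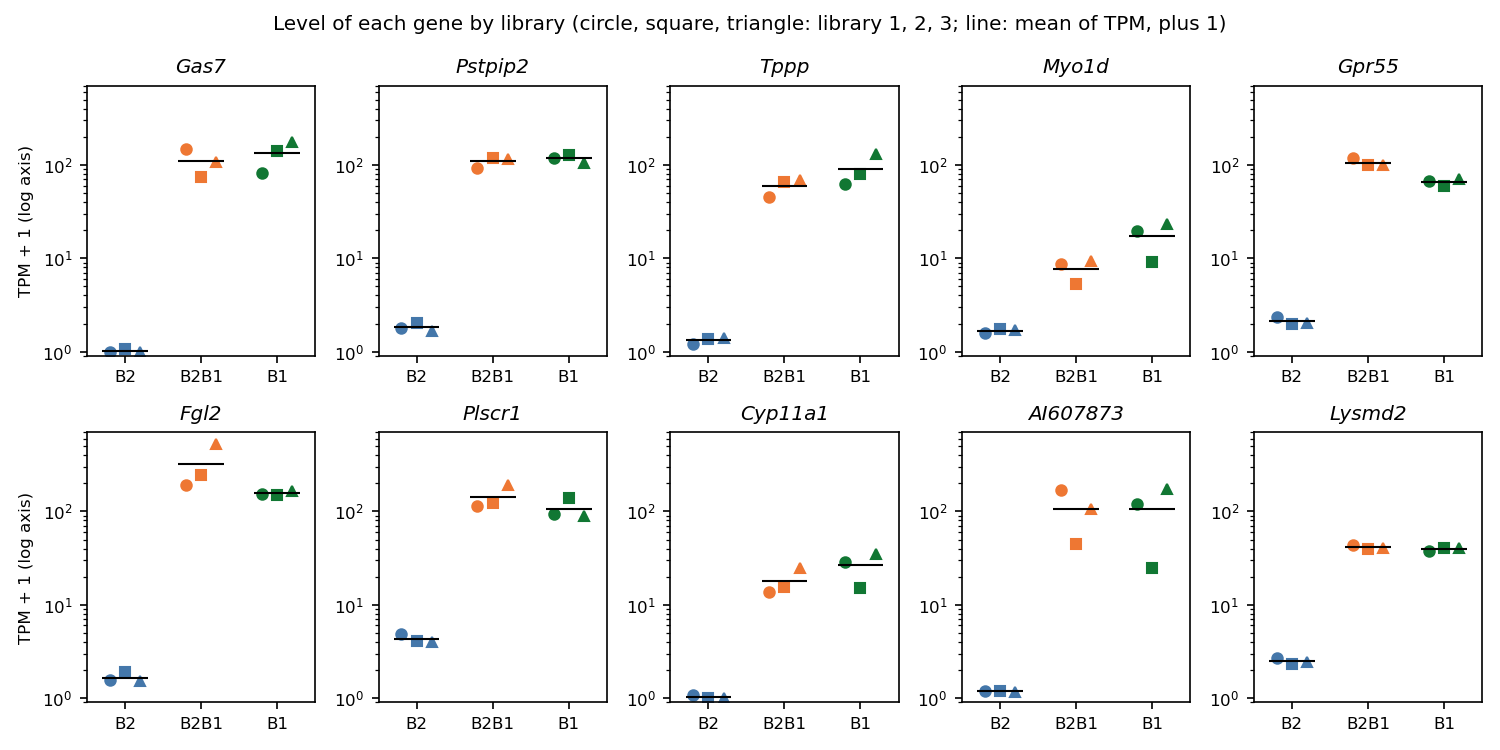
TPM plus 1 on a log axis for the 10 genes, with 1 panel per gene. Points are single libraries (circle, square and triangle for libraries 1, 2 and 3), and lines are group means; every peritoneal point lies above every B2 point, and AI607873 and Myo1d spread most among the peritoneal libraries.

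These 10 are part of a larger set. Of the 11099 tested genes, 1577 had a B2 mean of at most 3.30 TPM, the highest among the 10. Of those, 65 were raised at least as far as Myo1d in both comparisons (log2 differences of 3.25 and 2.16), and 10 of the 65 are the genes described here. By the smaller of their 2 differences, S100a4 (8.60) and Zbtb32 (7.53) stood above all 10, followed by Gas7 (6.68). In all, 6 of the 10 (Pstpip2, Myo1d, Gpr55, Plscr1, Cyp11a1 and Lysmd2) are also in the 28-gene signature that the submitters deposited, so that signature is no separate evidence for them.

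Between the peritoneal groups, 1 of the 10 genes passed the test. Gpr55 was higher in B2B1 than in B1, and 0 genes were lower. Limma called 19.0% of all tested genes in this comparison, 6.93% higher and 12.1% lower (9.4% and 8.5% with median-of-ratios scaling). At an unadjusted p under 0.05, limma gave 2 of the 10 higher (Gpr55 and Fgl2) and 1 lower (Myo1d). The share of all tested genes at that looser threshold was not counted, so no excess can be read from these numbers. The median difference of the 10 was −0.024, beside −0.056 for all tested genes, with 5 above 0 and 5 below. The B2B1 values of Gpr55 and Fgl2 lay wholly above the B1 values, which held for 12.0% of all tested genes, and 0 of the 10 lay wholly below, which held for 23.7%. The smallest p that an exact permutation test allows for groups of 3 is 0.1, so no single gene was tested that way.

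**Figure D2:**
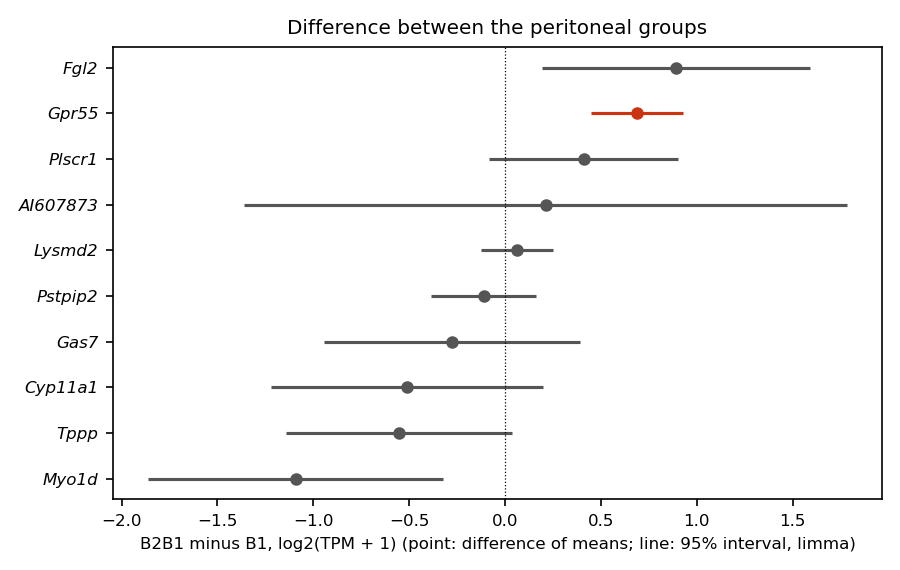
Difference of B2B1 minus B1 in mean log2(TPM + 1), with 3 libraries per group, for the 10 genes. Points are differences and lines are 95% intervals from limma; the interval of Gpr55, in red, is the only one past the adjusted threshold, those of Fgl2 and Myo1d exclude 0 without passing it, and that of AI607873 is the widest.

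Among the receptors and secreted proteins, Gpr55 was at 1.37, 0.997 and 1.01 TPM in B2 libraries 1 to 3, at 117, 98.6 and 99.0 TPM in B2B1 and at 66.6, 58.6 and 68.9 TPM in B1. All 3 B2B1 libraries were above all 3 B1 libraries. Its mean was 105 ± 10.6 TPM in B2B1 and 64.7 ± 5.43 TPM in B1 (SD, n = 3), a log2 difference of 0.69 ± 0.11 (SE, limma adjusted p = 0.003, higher in 3 of 3 libraries). It was called under all 22 alternatives, with adjusted p from 0.00202 to 0.0258. Gpr55 lies on chromosome 1 from 85938318 to 85961007 (GRCm38, GENCODE M21, minus strand), and its end overlaps 4933407L21Rik on the other strand, which stayed under 0.91 TPM. The library kit does not keep the strand, so reads from overlapping genes cannot be told apart.

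Other receptors for lysophospholipids and cannabinoids were called in both directions, more often lower. Of 19 listed, 15 were tested, and 9 were lower and 4 higher in B1 than in B2, with a median log2 difference of −0.99 beside −0.135 for all genes. In B2B1 against B2 the counts were again 9 lower and 4 higher. Among all tested genes 33.9% were lower and 18.0% higher in B1, and 42.0% and 21.0% in B2B1. The 4 higher ones were Gpr35, Lpar5, S1pr2 and Gpr65 in both comparisons. Gpr35, an orphan receptor for which lysophosphatidic acid has been proposed as a ligand, was near 0 in all B2 libraries and at 1.71 ± 0.901 TPM in B2B1 and 3.78 ± 0.950 TPM in B1 (limma adjusted p = 0.000868 and 7.24e-05). Lpar5 rose from 12.4 ± 0.673 TPM to 21.6 ± 5.75 TPM in B2B1 and 27.0 ± 1.11 TPM in B1. Cnr2, the cannabinoid receptor of immune cells, chosen here after its values were seen, was at 111 ± 2.91 TPM in B2, 4.64 ± 3.16 TPM in B2B1 and 7.99 ± 2.94 TPM in B1 (limma adjusted p = 4.17e-05 in B1 and 9.26e-06 in B2B1, lower in 3 of 3 libraries each). Lpar6, a receptor for lysophosphatidic acid, fell to 4.12 ± 0.786 TPM in B2B1 and 12.3 ± 3.64 TPM in B1 from 40.9 ± 1.71 TPM in B2, and it was lower in B2B1 than in B1 (log2 difference −1.35, limma adjusted p = 0.00212). Gpr174, a receptor for lysophosphatidylserine, stood at 88.2 ± 5.46 TPM in B2 and was lower in both peritoneal groups, with B2B1 above B1 (log2 difference 1.36, limma adjusted p = 0.00104).

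Fgl2 had the highest mean of the 10 in B2B1 and in B1, though Gas7 and AI607873 stood above it in B1 library 3. Its B2 values were 0.569, 0.899 and 0.510 TPM, its B2B1 values 189, 242 and 523 TPM, and its B1 values 153, 149 and 163 TPM. The B1 libraries differed little among themselves (155 ± 7.28 TPM), while B2B1 library 3 was over 2 times the other B2B1 libraries (318 ± 179 TPM for the group). The log2 difference of 0.89 ± 0.31 between B2B1 and B1 did not pass (limma adjusted p = 0.075, higher in 3 of 3 libraries). It passed without B2B1 library 1 (1.20, adjusted p = 0.0266) and shrank to 0.46 without B2B1 library 3 (adjusted p = 0.0565). B2B1 library 3 was also the only B2B1 library with Xist, the RNA that coats the inactive X, at 180 TPM; libraries 1 and 2 had 0.461 and 0.355 TPM, and all B1 libraries 212 to 298 TPM. With the Xist level as a covariate the adjusted p of Fgl2 was 0.0886.

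Fgl2 lies on chromosome 5 from 21372642 to 21378374 on the plus strand, within the span of Ccdc146 on the minus strand, which stayed at or under 0.475 TPM in all peritoneal libraries. Most of its listed relatives were too low to test. Fibrinogen genes (Fga and Fgg), Fgl1 and tissue factor (F3) were listed at 0 in every library, and Fgb reached 0.07 TPM at most. Of the 15 listed fibrinogen and coagulation genes, 4 were tested, and Tfpi, an inhibitor of the tissue factor pathway, was the member called, lower in B1 (1.85 ± 0.283 TPM) and in B2B1 (0.772 ± 0.191 TPM) than in B2 (3.57 ± 0.343 TPM). The other 3 tested were not called against B2. Of all tested genes, 33.9% were lower and 18.0% higher in B1, and 42.0% and 21.0% in B2B1. Tfpi was also called lower in B2B1 than in B1 (log2 difference −0.69, limma adjusted p = 0.0116), beside 12.1% of all tested genes. That call was lost with the Xist level as a covariate (−0.662, adjusted p = 0.0782). Of the untested genes, the coagulation factor gene F5 was at most 0.0286 TPM in B2, at 0.236 to 1.05 TPM in B2B1 and at 0.0170 to 0.161 TPM in B1. Thrombomodulin (Thbd) was at most 0.204 TPM in B2, at 0.0270 to 0.457 TPM in B2B1 and at 0.688 to 1.05 TPM in B1.

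Of the cytoskeletal genes, Gas7 was estimated at 1.64e-05, 0.076 and 8.5e-07 TPM in the B2 libraries, at 146, 72.6 and 105 TPM in B2B1 and at 81.7, 140 and 174 TPM in B1. B2 values this close to 0 give no usable fold. The peritoneal groups overlapped (108 ± 36.7 TPM in B2B1 and 132 ± 46.6 TPM in B1; log2 difference −0.28, 95% interval −0.94 to 0.39, limma adjusted p = 0.549). Gas7 spans 233554 bases of chromosome 11, from 67455437 to 67688990, and overlaps Glp2r, which stayed under 0.07 TPM.

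Pstpip2, the other F-BAR protein, was among the steadiest of the 10. It was at 0.814, 1.02 and 0.650 TPM in B2, at 92.1, 117 and 116 TPM in B2B1 and at 118, 127 and 105 TPM in B1. The peritoneal groups overlapped and differed by −0.11 on the log2 scale (95% interval −0.39 to 0.16, limma adjusted p = 0.559). Pstpip2 lies on chromosome 18 from 77789914 to 77882879.

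Other F-BAR genes were called in both directions. Of 21 listed relatives, 16 were tested; 3 were higher and 6 lower in B1 than in B2 (median log2 difference −0.131), and 5 were higher and 5 lower in B2B1 than in B2 (median −0.031). Over all tested genes 18.0% were higher and 33.9% lower in B1, and 21.0% and 42.0% in B2B1. Pstpip1, the closest relative of Pstpip2, was at 78.1 to 96.3 TPM in all 9 libraries. Fchsd2, a regulator of endocytosis, was at 207 ± 15.1 TPM in B2 and fell in both peritoneal groups (57.0 ± 5.62 TPM in B2B1 and 36.9 ± 5.87 TPM in B1, limma adjusted p = 4.87e-07 in B1). Nostrin, which binds nitric oxide synthase, was at 0.298 ± 0.0196 TPM in B2, 4.91 ± 1.78 TPM in B2B1 and 0.227 ± 0.160 TPM in B1, and the difference between B2B1 and B1 was called (log2 difference 2.24, limma adjusted p = 0.000302).

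Tppp was at 0.195, 0.380 and 0.389 TPM in B2, at 44.2, 64.0 and 68.2 TPM in B2B1 and at 60.8, 78.8 and 130 TPM in B1. The highest peritoneal value, in B1 library 3, was 2.93 times the lowest, and the groups overlapped (log2 difference −0.55, 95% interval −1.14 to 0.03, limma adjusted p = 0.169). Tppp lies on chromosome 13 from 74009407 to 74035753.

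Several relatives and partners of Tppp were also higher in the peritoneal groups. Of 13 listed TPPP and tubulin genes, 8 were tested, and 5 were higher and 1 lower in B1 than in B2, with a median log2 difference of 1.90. In B2B1 against B2, 4 were higher and 1 lower, with a median of 2.13. Of all tested genes, 18.0% were higher and 33.9% lower in B1, and 21.0% and 42.0% in B2B1. The list, which includes Tubb6, Tubb2a and Tubb2b, was chosen with earlier results of these data known. Its counts and medians are therefore a description only. Tppp3, the paralog of Tppp and chosen here after its values were seen, was at 0.285, 0.493 and 0.325 TPM in B2, at 55.1, 36.1 and 40.1 TPM in B2B1 and at 19.9, 31.7 and 74.0 TPM in B1. All peritoneal values were above all B2 values (log2 difference 4.77 in B1 and 5.01 in B2B1, limma adjusted p = 1.41e-05 and 7.4e-06). The beta tubulin Tubb6 was at 3.82 ± 0.356 TPM in B2, 170 ± 32.4 TPM in B2B1 and 180 ± 34.5 TPM in B1 (limma adjusted p = 5.48e-08 in B1). Tubb2a rose to 83.6 ± 8.48 TPM in B2B1 and 101 ± 11.7 TPM in B1 from 10.4 ± 1.37 TPM in B2, and Tubb2b to 86.9 ± 4.08 and 66.0 ± 16.5 TPM from 3.34 ± 0.769 TPM. Beta tubulin genes are close copies, so how shared reads were divided can shift amounts among them. Tppp2 and Stmn2 were listed at 0 everywhere, Mapre1 and Stmn1 were not called, and the deacetylase Hdac6 was the lower member in both comparisons. Between B2B1 and B1, 0 of the 8 passed limma's threshold, beside 19.0% of all tested genes. At an unadjusted p under 0.05, Tubb2b was higher and Mapre2 lower, and the share of all genes there was not counted.

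**Figure D3:**
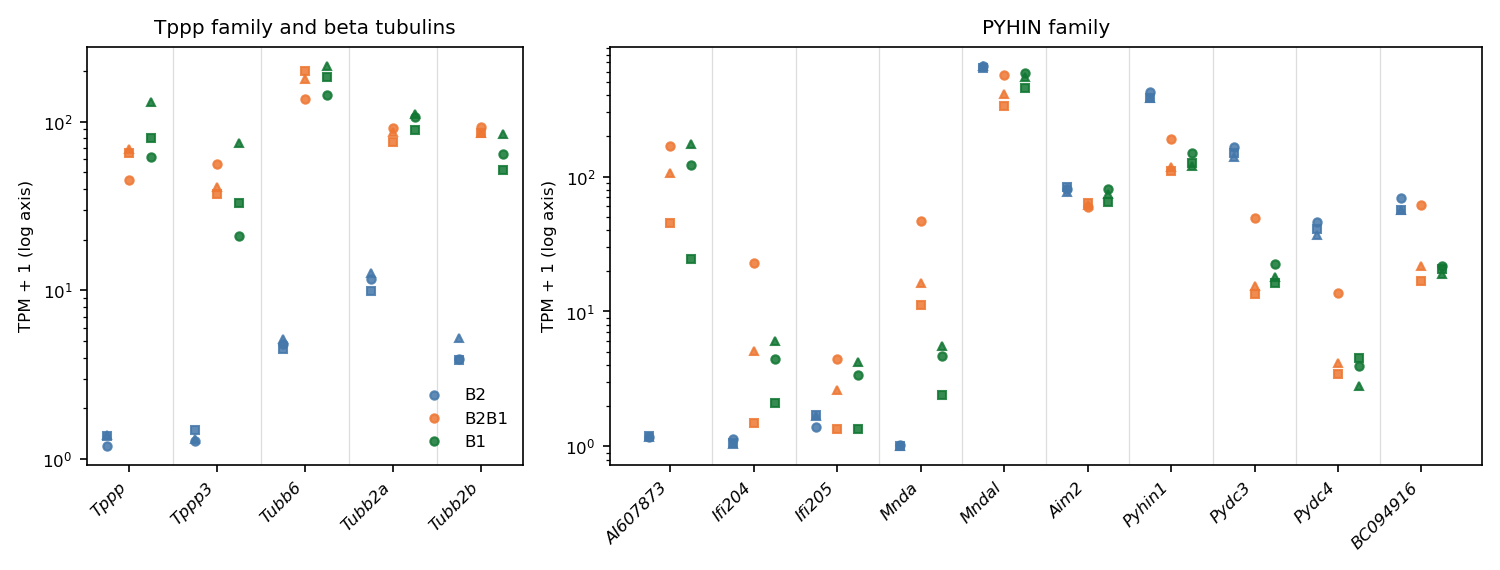
TPM plus 1 on a log axis for Tppp with its paralog and 3 beta tubulins (left) and for AI607873 with 9 PYHIN relatives (right). Points are single libraries (circle, square and triangle for libraries 1, 2 and 3) coloured by group. The 5 genes on the left stand higher in every peritoneal library than in B2. On the right AI607873, Mnda and Ifi204 stand higher in every peritoneal library and Pyhin1, Pydc3, Pydc4 and Mndal lower, while the others overlap B2.

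Myo1d was the least raised of the 10 and the one with the largest negative difference between the peritoneal groups. It was at 0.580, 0.763 and 0.706 TPM in B2, at 7.67, 4.27 and 8.27 TPM in B2B1 and at 18.5, 8.08 and 22.2 TPM in B1. B1 library 2 lay among the B2B1 libraries, and the other B1 libraries lay above all of them. The mean of B2B1 was 0.414 times that of B1 (log2 difference −1.09 ± 0.34, limma adjusted p = 0.0538), short of the threshold. Without B1 library 2 it was called lower (−1.50, adjusted p = 0.00443), and leaving out any other single library gave −0.825 to −1.245 with no call. That library also had more RNA of dividing cells: 6 such genes, Mki67 and Top2a among them, summed to 83.2 TPM there and to 16.5 and 19.4 TPM in B1 libraries 1 and 3. In B2B1 the same sum was 110 TPM in library 1 and 43.9 and 42.1 TPM in libraries 2 and 3. The part of this in the result was not tested. Myo1d spans 297900 bases of chromosome 11, from 80482126 to 80780025.

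Other class I myosins showed no common direction. Of 7 listed, 5 were tested, with 1 higher and 2 lower in B1 than in B2 and 2 higher and 2 lower in B2B1 than in B2. For all tested genes the shares were 18.0% and 33.9% in B1, and 21.0% and 42.0% in B2B1. Of the lower calls in B1, that of Myo1c was lost under quantile normalization and under median-of-ratios scaling (−0.195 and −0.156, limma adjusted p = 0.0876 and 0.169). Myo1f was at 18.7 ± 2.20 TPM in B2 and fell to 3.83 ± 1.41 TPM in B2B1 and 0.713 ± 0.527 TPM in B1. Myo1e rose in both, to 142 ± 5.86 and 144 ± 34.2 TPM from 68.8 ± 1.73 TPM. Myo1h was at 1.15 ± 0.270 TPM in B2, 6.59 ± 2.26 TPM in B2B1 and 0.643 ± 0.0808 TPM in B1, so that Myo1h and Myo1d lay on opposite sides between the peritoneal groups (Myo1h log2 difference 2.17 ± 0.21, limma adjusted p = 0.000355).

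Plscr1 had the highest B2 level of the 10, at 3.82, 3.09 and 3.00 TPM, and reached 113, 122 and 188 TPM in B2B1 and 92.0, 137 and 87.7 TPM in B1. The peritoneal groups overlapped through B1 library 2 (log2 difference 0.41, 95% interval −0.08 to 0.90, limma adjusted p = 0.222). It lies on chromosome 9 from 92249750 to 92272278, with its paralog Plscr2 starting 3324 bases beyond its end. Plscr2 was listed at 0 in B2 and stayed under 0.87 TPM elsewhere, and Plscr4 stayed under 0.26 TPM. Plscr3 fell in both comparisons, with means of 7.67 ± 0.575 TPM in B2, 3.37 ± 0.743 TPM in B2B1 and 3.55 ± 0.913 TPM in B1 (limma adjusted p = 0.00165 in B1). Of the 10 listed scramblases and flippases, 7 were tested, and limma called 0 higher in either comparison with B2 and 3 lower in B1 and 5 in B2B1. The shares of all tested genes were 18.0% higher and 33.9% lower in B1, and 21.0% and 42.0% in B2B1. At an unadjusted p under 0.05, 1 was higher in B1 (Tmem30a, 0.17 on the log2 scale) and 0 in B2B1. The flippase Atp8a1 fell from 45.3 ± 1.23 TPM to 22.0 ± 3.08 TPM in B2B1 and 25.7 ± 2.72 TPM in B1.

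Cyp11a1 was at 0.0759 TPM in B2 library 1 and listed at 0 in the other B2 libraries. It reached 12.8, 14.5 and 23.6 TPM in B2B1 and 27.9, 14.0 and 34.1 TPM in B1. B1 library 2 was again the low one of its group and lay among the B2B1 values (log2 difference −0.51, 95% interval −1.22 to 0.20, limma adjusted p = 0.287). Without that library B2B1 was called lower (−0.87, adjusted p = 0.0326), while without B1 library 3 the difference was −0.26 (adjusted p = 0.628) and without B2B1 library 1 it was −0.34 (adjusted p = 0.556). In GENCODE M21 Cyp11a1 lies on chromosome 9 from 58006411 to 58027023.

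Several enzymes that act after Cyp11a1 in steroid hormone synthesis were at or near 0, and others were present. Hsd3b1 and Cyp21a1 were listed at 0 in all 9 libraries, as was Nr5a1, which encodes SF-1. Cyp17a1 and Cyp11b1 stayed under 0.14 TPM. Hsd17b1 was at 0.510 to 2.46 TPM over the libraries and was called lower in B2B1 than in B2 (limma adjusted p = 0.0253). The aromatase gene Cyp19a1 averaged 1.04 TPM in B2 and in B1 and 0.582 TPM in B2B1. Hsd17b4, a peroxisomal enzyme that also acts in fatty acid oxidation, was at 25.3 ± 0.959 TPM in B2 and rose to 34.0 ± 2.53 TPM in B1 and 36.8 ± 1.18 TPM in B2B1 (limma adjusted p = 0.00124 and 0.000202). Hsd17b11 rose in B1 (88.4 ± 12.3 TPM against 65.6 ± 0.798 TPM in B2, limma adjusted p = 0.0116). Star, which carries cholesterol into mitochondria, was at 2.79 to 4.47 TPM over the libraries and was called lower in B2B1 than in B2 (limma adjusted p = 0.0053). Fdx1, the ferredoxin that passes electrons to Cyp11a1, was at 6.80 ± 0.233 TPM in B2 and rose to 13.9 ± 1.12 TPM in B2B1 and 12.2 ± 1.92 TPM in B1 (log2 difference 0.93 and 0.75, limma adjusted p = 0.00014 and 0.000716, higher in 3 of 3 libraries each). Its reductase Fdxr was at 21.1 to 28.6 TPM throughout. Another mitochondrial P450, the sterol 27-hydroxylase Cyp27a1, fell from 67.4 ± 4.09 TPM to 2.42 ± 1.19 TPM in B2B1 and 5.83 ± 2.57 TPM in B1. Stard3 fell from 45.1 ± 4.65 TPM to 26.5 ± 2.02 TPM in B2B1 and 29.8 ± 2.18 TPM in B1 (limma adjusted p = 0.000161 and 0.000974). Srd5a3 was also called lower in B1, and Hsd3b7 in B2B1 (limma adjusted p = 0.000999 and 0.0287). Of 21 listed steroid synthesis genes, 12 were tested. In B1 3 were higher and 3 lower, beside 18.0% and 33.9% of all tested genes. In B2B1 2 were higher and 5 lower, beside 21.0% and 42.0%.

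AI607873 was at 0.181, 0.192 and 0.166 TPM in B2, at 168, 44.0 and 105 TPM in B2B1 and at 120, 23.5 and 173 TPM in B1. It varied most of the 10: the highest peritoneal library was 7.37 times the lowest, and library 2 was the lowest in both peritoneal groups. The group means were near equal (106 ± 61.9 and 106 ± 75.9 TPM), but the interval was wide (log2 difference 0.21, 95% interval −1.36 to 1.78, limma adjusted p = 0.86), so a difference of 2-fold either way was not detectable. It lies on chromosome 1 from 173723427 to 173741747 on the minus strand, with gaps of 5546 bases to Ifi204 on one side and 25032 bases to Pydc3 on the other.

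Its PYHIN relatives in the same cluster did not move as one. Of 19 listed symbols, 10 were in the table and 9 were tested. In B1 against B2, 1 was higher and 4 lower, beside 18.0% and 33.9% of all tested genes. In B2B1 against B2, 2 were higher and 6 lower, beside 21.0% and 42.0%. Mnda, whose symbol RefSeq lists under Ifi211, was at most 0.02 TPM in B2, at 45.5, 10.3 and 15.2 TPM in B2B1 and at 3.70, 1.39 and 4.59 TPM in B1. It rose in both comparisons and was higher in B2B1 than in B1 (log2 difference 2.36 ± 0.49, limma adjusted p = 0.0117, higher in 3 of 3 libraries), a call that was lost with the Xist level as a covariate (2.18, adjusted p = 0.0836). B2B1 library 1, its highest, was also the library with the most macrophage marker RNA, and the part of this was not tested.

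Ifi204, next to AI607873, was at 22.0, 0.501 and 4.10 TPM in B2B1, so its call in B2B1 (limma adjusted p = 0.0313) rested on an uneven group and was lost under 8 of 21 alternatives (without B2B1 library 1, 1.36, adjusted p = 0.0659). Pydc3, on the other side, stood at 151 ± 12.7 TPM in B2 and fell to 25.1 ± 20.1 TPM in B2B1 and 17.9 ± 3.15 TPM in B1 (limma adjusted p = 0.000344 and 0.000318). Pyhin1 fell from 392 ± 23.3 TPM to 138 ± 44.5 TPM and 130 ± 15.3 TPM, and Pydc4 from 40.4 ± 4.67 TPM to 6.11 ± 5.75 TPM and 2.76 ± 0.894 TPM. These genes are near-identical in places, and how their shared reads were divided can shift amounts among them.

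Lysmd2 was the steadiest. It was at 1.67, 1.35 and 1.46 TPM in B2, at 43.0, 38.9 and 39.3 TPM in B2B1 and at 36.4, 39.8 and 39.7 TPM in B1, so that its 6 peritoneal values lay within 1.18 times of each other. The log2 difference between B2B1 and B1 was 0.06 with a 95% interval of −0.13 to 0.25 (limma adjusted p = 0.633). Lysmd2 lies on chromosome 9 from 75625741 to 75637771. Lysmd1 fell in both groups (21.7 ± 0.673 TPM in B2, 13.9 ± 0.0656 TPM in B2B1 and 13.7 ± 0.821 TPM in B1, limma adjusted p = 0.000101 in B1). Ncoa7, a nuclear receptor coactivator that also has a LysM domain, was at 11.9 ± 0.478 TPM in B2 and rose in both, to 22.0 ± 1.60 TPM in B2B1 and 26.4 ± 3.58 TPM in B1 (limma adjusted p = 0.000138 and 4.22e-05). Lysmd3 and Lysmd4 were not called in any of the 3 comparisons.

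The spread among libraries of 1 group set the genes apart from each other. Pooled over the peritoneal groups, the SD of log2(TPM + 1) was 0.075 for Lysmd2, 0.132 for Gpr55 and 0.170 for Pstpip2. Its median was 0.134 over the 8965 tested genes with a peritoneal mean from 4.27 to 523 TPM. Those bounds are the extreme single values of the 10, so the set holds most of the 11099 tested genes and is not matched by level. The SD was 0.373 for Plscr1, 0.454 for Tppp, 0.528 for Gas7, 0.542 for Fgl2, 0.554 for Cyp11a1, 0.599 for Myo1d and 1.27 for AI607873, all above the 90th percentile of those genes (0.327). B1 library 2 was the lowest B1 library for 5 of the 10 (Myo1d, Gpr55, Fgl2, Cyp11a1 and AI607873), and B1 library 3 the highest for 7.

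In each library the levels can be set beside the macrophage markers, since Fgl2, Plscr1 and Pstpip2 are known from macrophages too. B1 library 1 held 3.98 TPM of the 18 markers, within the range of the B2 libraries, with Lyz2 at 1.22 TPM, while Emr1, left out of the 18, was at 19.7 TPM there and at most 0.448 TPM in B2. The part of macrophage RNA in these levels was not tested. In that library the 10 genes stood at 0.52 (Gas7) to 1.22 (AI607873 and Myo1d) times the mean of the other B1 libraries, 5 above and 5 below it. B2B1 library 1 held the most, 274 TPM, with Lyz2 at 181 TPM. There the 10 genes stood at 0.494 (Fgl2) to 2.26 (AI607873) times the mean of the other B2B1 libraries, again 5 above and 5 below. Pstpip2 was at 118 TPM in the first of these libraries and at 92.1 TPM in the second.

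**Figure D4:**
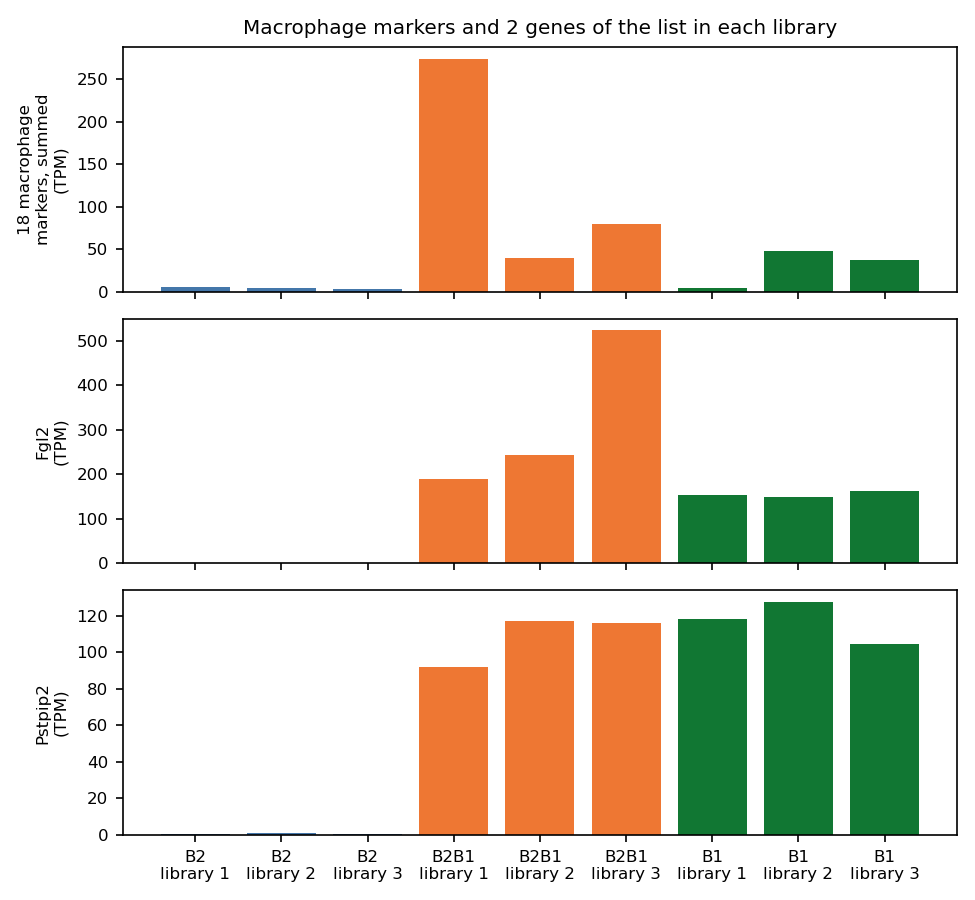
Summed TPM of 18 macrophage markers (top) and TPM of Fgl2 (middle) and Pstpip2 (bottom) in each library, with bars coloured by group. B1 library 1 has 3.98 TPM of the markers, 153 TPM of Fgl2 and 118 TPM of Pstpip2, and B2B1 library 1 has 274 TPM of the markers with 189 and 92.1 TPM.

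The genes with the most similar pattern to each were found by the root mean square difference of log2(TPM + 1), each gene centred on its own mean, over the 9 libraries and among 8592 genes with a mean of at least 5 TPM. Lysmd2 had the closest match, Nrp2, a semaphorin co-receptor, at 0.142. Gpr55 was closest to Lgals1, which encodes galectin 1, at 0.261, and Myo1d to the adhesion scaffold gene Mllt4 at 0.298. Plscr1 was closest to Nid1 (0.325), Cyp11a1 to Atf3 (0.332), Pstpip2 to Sox5 (0.348) and Tppp to Tubb6 (0.376). Gas7 and Fgl2 were both closest to Tnfrsf8, which encodes CD30, at 0.336 and 0.541.

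AI607873 was closest to Ctla4, the inhibitory T cell receptor, at 0.334. Ctla4 was listed at 0 in B2, and stood at 143, 44.2 and 132 TPM in B2B1 and at 67.2, 25.6 and 112 TPM in B1. Library 2 was the lowest of both peritoneal groups for Ctla4 too. All these genes share the step from B2, which enters each distance. Among the 10 themselves, Pstpip2 and Tppp were the closest pair (0.389), and AI607873 was farthest from the rest (0.88 from Gas7, its nearest).

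The genes next to the 10 on their chromosomes were mostly at very low levels. Of the 20 nearest measured genes, 1 on each side, 8 reached the mean of 1 TPM needed for the test. In B1 against B2, 1 was higher and 4 lower, beside 18.0% and 33.9% of all tested genes. In B2B1 against B2, 3 were higher and 5 lower, beside 21.0% and 42.0%. Cdk5r1, an activator of Cdk5 whose end lies 942 bases from the end of Myo1d on the opposite strand, stood at 11.1 ± 0.712 TPM in B2 and fell to 0.545 ± 0.137 TPM in B2B1 and 0.567 ± 0.0749 TPM in B1 (limma adjusted p = 2.25e-07 and 2.57e-07). Cep72, which ends 747 bases from Tppp, fell from 7.40 ± 0.255 TPM to 4.50 ± 0.254 TPM and 5.0 ± 0.983 TPM. Ccdc33, 1654 bases from Cyp11a1, stayed under 0.04 TPM, and Scg3, 5418 bases from Lysmd2, under 0.04 TPM as well. Fam185a, 46584 bases from Fgl2, rose from 7.01 ± 0.339 TPM to 12.1 ± 2.35 TPM and 12.3 ± 2.80 TPM. The other higher calls in B2B1, Ifi204 and Atp5a1, and the lower calls of Epg5 in B2B1 and Sema7a in B1, were each lost under 8 to 12 of the alternatives.

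Over all 9 lists of relatives and partners, 81 of 130 genes were tested. In B1 against B2, 22.2% were higher and 37.0% lower, beside 18.0% and 33.9% of all genes. In B2B1 against B2 the shares were 24.7% and 43.2%, beside 21.0% and 42.0%, and in B2B1 against B1 they were 12.3% and 11.1%, beside 6.93% and 12.1%. In B1 against B2 the list of Tppp had the most higher calls, 5 of the 18. The lists were chosen with earlier results of these data known, so this ranking is a description only.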

How the data were processed

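RNA-seq of 9 mouse B cell libraries was analysed from TPM that the authors deposited per gene symbol. The submitters' processing notes name kallisto, CASAVA 1.8.2 and build mm10. No source used here states the kallisto version, the transcript set or how gene values were formed. The 28-gene signature table equals the gene table for 26 genes (within 0.001 TPM) and was used only for membership. Because TPM keep no depth, no count model and no counting interval was possible.

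Libraries were grouped by their titles, and every value column was mapped to a library. Values were analysed as log2(TPM + 1), a scale that understates the change of low genes, for the 11099 genes with a mean of at least 1 TPM. One model over all 9 libraries was fitted with limma 3.58.1 (lmFit, contrasts.fit, eBayes with trend) in R 4.3.3, and two-sided p-values were adjusted by Benjamini-Hochberg over all tested genes. The threshold for a call was an adjusted p of 0.05. The fit was checked on simulated data with known changes. Mean and SD are over 3 libraries.

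The genes, the lists of relatives and markers and the naming rule were chosen with earlier results of these data known. Per list and comparison, up to 3 called genes with the smallest adjusted p were named, with the nearest measured neighbours, the most similar gene per member and single genes at or near 0. Genes of dividing cells, and Tppp3, Cnr2, Pstpip1, Gpr35, Lpar5, S1pr2, Gpr65, Star, Fdxr, Cyp19a1, the Hsd17b genes, F5, Thbd, Hdac6, Tmem30a, Mapre1, Mapre2, Stmn1 and Xist, were picked after their values were seen. Ccr7, Prf1, Flt3, Srd5a3 and Hsd3b7 were picked in the same way. Older symbols were matched through RefSeq synonyms (21853 of 22178 symbols placed on GENCODE M21). Same-numbered libraries of different groups did not deviate together (r of −0.058 to 0.123 across genes), so libraries were not paired. Alternatives changed the pseudocount, filter, scaling, variance model and libraries used. Plots used matplotlib 3.10.9 under Python 3.11.15.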

Additional observations from a re-analysis of the deposited data

How the results depend on the processing

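Of the 10 genes, Gpr55 kept its call between B2B1 and B1 under all 22 alternatives (log2 difference 0.54 to 0.75). The count higher in B2B1 was 2 with library weights and 3 without B1 library 2 and B2B1 library 1 together, and 1 to 2 with single libraries left out. The count lower was 1 with library weights, 1 with both libraries left out, 1 with the replicate block (Myo1d, −1.09, adjusted p = 0.0342), and 0 to 2 with single libraries left out. The replicate block changed no other call among the 10. Direction reversed for uncalled differences only. Pstpip2 went to 0.066 with both libraries left out and to 0.001 without B2B1 library 1 (−0.187 to 0.001 over single libraries). AI607873 went to −0.346 with library weights, −1.075 with both left out, −0.219 without B2B1 library 1 and −0.645 without B1 library 2 (−0.645 to 0.77 over single libraries). With both left out, Plscr1 was called higher (0.75, adjusted p = 0.0367).

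Neighbours higher in B1 than in B2 numbered 2 with a pseudocount of 0.1, median-of-ratios scaling, library weights, both libraries left out or only the groups compared, 5 with no filter, and 1 to 2 with single libraries left out. In B2B1 against B2 they numbered 1 with a mean of at least 5 TPM, quantile normalization or the Xist covariate, and 1 to 3 with single libraries left out. Neighbours lower in B2B1 than in B1 numbered 3 with no filter and 2 with both left out. Relatives higher in B2B1 than in B1 fell from 10 to 6 with the stricter filter and to 5 with the Xist covariate; those lower went from 9 to 4 with that covariate and to 17 with both left out. The cause was not tested. Median-of-ratios scaling shifted the median of all genes from −0.135 to −0.001 in B1 against B2 and from −0.193 to −0.003 in B2B1 against B2, and the calls of relatives to 22 higher and 27 lower and to 28 and 27. TPM give no depth, so what depth limits cannot be stated.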
